A study of Mus musculus with 11 samples.

Results

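The cytokine-inducible SH2 protein CIS and the suppressors of cytokine signalling SOCS1 to SOCS7 form a family of 8 genes, Cish and Socs1 to Socs7, and their transcript levels are described here in mouse mammary gland at parturition. Members were taken by gene symbol from the authors' expression table. All 8 were present, on 11 of its 30305 loci and among its 14847 named genes. The tissue came from wild-type mice of the mixed strain background 129SV::FVB/N::C57BL/6, had its lymph nodes removed and was sequenced as 1 poly(A) RNA library; the labels name no treatment, and neither the age of the animals nor any pooling of tissue is stated in them. The series also holds ChIP-seq of the transcription factor STAT5A and of the histone mark H3K4me3 from earlier pregnancy and from parturition. Those data were not used for these genes, and expression on day 6 and day 13 of pregnancy was not analysed here.

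CIS and the SOCS proteins are feedback inhibitors. A cytokine or hormone such as prolactin brings JAK kinases together at its receptor, the kinases phosphorylate STAT factors, and the STATs enter the nucleus and switch on genes that include members of this family. Each member carries an SH2 domain, which binds phosphorylated tyrosines on receptors or signalling proteins, and a SOCS box, which binds elongins B and C and so recruits a cullin ubiquitin ligase. SOCS1 and SOCS3 also hold a kinase inhibitory region that blocks JAKs directly. In the mammary gland the prolactin receptor, JAK2 and STAT5 drive alveolar development and milk gene expression, and CIS, SOCS1, SOCS2 and SOCS3 are known to restrain this route.

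Because Cish is a textbook STAT5 target, the promoter sequences of the members were read for a STAT-type motif. RefSeq windows of 300 bases, 250 before and 50 after an annotated start in the build GRCm38.p6, were at hand for 4 of the 8 members: Cish, Socs1, Socs3 and Socs4. Those of Cish, Socs3 and Socs1, the members with a match, are printed 5′ to 3′ up to base 25 after the start, with motif matches in capitals: in Cish (chr9:107296409-107296683, plus strand) and Socs3 (chr11:117969342-117969616, minus strand) the STAT-type motif TTCNNNGAA, and in Socs1 (chr16:10785512-10785786, minus strand) an interferon-type motif, made of GAAA, any 2 bases and GAAA again.
Cish: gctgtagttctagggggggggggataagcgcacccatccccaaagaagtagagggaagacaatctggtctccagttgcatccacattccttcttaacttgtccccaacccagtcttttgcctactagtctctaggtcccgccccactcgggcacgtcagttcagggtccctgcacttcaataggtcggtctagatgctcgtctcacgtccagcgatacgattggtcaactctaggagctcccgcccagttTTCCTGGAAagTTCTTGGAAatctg
Socs3: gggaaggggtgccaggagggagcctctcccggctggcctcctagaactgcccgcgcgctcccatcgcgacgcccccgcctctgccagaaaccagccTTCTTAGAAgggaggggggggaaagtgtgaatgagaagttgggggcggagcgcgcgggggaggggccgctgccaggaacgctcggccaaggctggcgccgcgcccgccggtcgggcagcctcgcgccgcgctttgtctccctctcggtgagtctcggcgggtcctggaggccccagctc
Socs1: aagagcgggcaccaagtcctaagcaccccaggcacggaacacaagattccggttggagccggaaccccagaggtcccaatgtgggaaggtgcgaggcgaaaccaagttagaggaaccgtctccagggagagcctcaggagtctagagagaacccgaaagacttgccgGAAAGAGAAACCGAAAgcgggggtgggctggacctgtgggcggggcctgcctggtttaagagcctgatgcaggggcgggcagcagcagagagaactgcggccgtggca

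The Cish window held the STAT-type motif at 2 places, TTCCTGGAA at bases 1 to 9 and TTCTTGGAA at bases 12 to 20 from the annotated start, which is base 1. Socs3 held it once, as TTCTTAGAA from base -154 to base -146, counting back from the start. Socs1 and Socs4 held none. TTCNNNGAA reads the same on both strands, so each match was counted once. Of all 32851 RefSeq promoter windows of this length, 8.30% held at least 1 match and 0.457% at least 2, so the pair in Cish was uncommon and the single match in Socs3 was not rare. The variant with 4 bases in place of 3 between TTC and GAA was found in none of the 4 windows and in 6.95% of all windows.

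The interferon-type motif was not planned: it was picked after the Socs1 sequence had been seen, so the shares of windows given for it are descriptions of a motif chosen from that sequence. It was searched on both strands. Socs1 held it at bases -83 to -74 and again at bases -77 to -68, as GAAAGAGAAA and GAAACCGAAA, which overlap. At least 1 match occurred in 3.44% of all windows and at least 2 in 0.225%. The other 3 members with a window held none. These matches describe letters in a window; binding at them was not measured here. The GC content was 53.3% in the window of Cish, 63.3% in Socs1, 70.7% in Socs4 and 73.3% in Socs3, against a median of 52.7% over all windows.

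**Figure D1:**
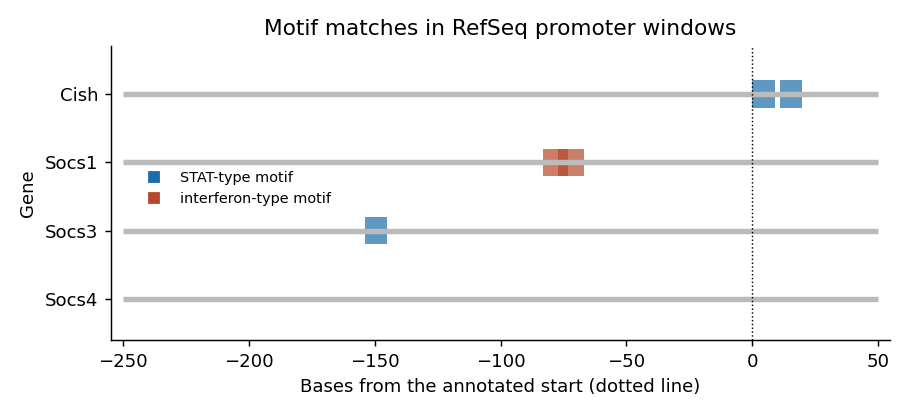
Motif matches in the RefSeq promoter windows of 4 members. The x axis gives bases from the annotated start (dotted line), grey bars the window, blue boxes TTCNNNGAA and red boxes the interferon-type motif. Of the 2 blue boxes of Cish the first begins at the start itself and the second at base 12. The blue box of Socs3 lies at bases -154 to -146, and the red boxes of Socs1 overlap each other.

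Cish stood far above the rest of the family in the gland at parturition, and Socs1 and Socs3 were lowest. Levels are FPKM, a fragment count divided by transcript length and library size, which allows genes of different length to be compared. Each is the value of 1 library, with no replicate error and with unknown sequencing depth. Very high genes, such as the milk protein genes Csn2 at 170861 FPKM and Wap at 63664, lower the FPKM of all others. Levels and FPKM thresholds are therefore used only within this library, not against other tissues. Cish was at 33.2 FPKM, Socs2 at 6.61, Socs4 at 6.16, Socs6 at 4.56, Socs5 at 4.13, Socs7 at 3.75, Socs3 at 1.25 and Socs1 at 0.38. The range from Socs1 to Cish was 86.9 times. Without Cish the other 7 spanned 17.3 times.

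Cish alone made up 55.3% of the summed FPKM of the 8 genes, more than the other 7 together. Its level was 8.50 times the median of all named genes, which was 3.90 FPKM. Of the named genes 1323, or 8.91%, were higher, which put Cish at percentile 91.1. CIS binds phosphorylated cytokine receptors and competes there with STAT5.

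Socs2, which encodes a regulator of growth hormone receptor signalling, was second, at percentile 62.7 of named genes. Between Cish and Socs2 lay the levels of 4214 named genes. Cish and Socs2, the pair best known as STAT5 targets, together held 66.3% of the family's summed FPKM. Most of this was Cish, since Socs2 contributed 11.0%.

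Socs4 to Socs7, which have long N-terminal regions and are linked mostly to receptor tyrosine kinases, lay close together. Their levels ran from 3.75 to 6.16 FPKM, a span of 1.64 times, and their percentiles from 49.1 to 61.0. Together they held 31.0% of the family's summed FPKM. Among Socs2 and these 4 genes, Socs2 was 1.07 times Socs4, Socs4 was 1.35 times Socs6, Socs6 was 1.10 times Socs5, and Socs5 was 1.10 times Socs7. With 1 library the order among these 5 genes cannot be set against replicate spread.

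Socs3 and Socs1, the members with the kinase inhibitory region, were at percentiles 29.4 and 15.1 of named genes. Socs3, an inhibitor of cytokine receptors that contain gp130, was at 0.32 of the median named gene and Socs1, an inhibitor of interferon signalling, at 0.098 of it. The pair held 2.72% of the family's summed FPKM. The step from Socs7 down to Socs3 was 3.01 times and that from Socs3 to Socs1 was 3.27 times.

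As a family the 8 genes were near the middle of all named genes. Their median was 4.34 FPKM, against 3.90 over all named genes, and the median of their percentiles was 52.4. A level of 1 FPKM was reached by 7 of 8 members, all but Socs1, where 73.6% of all named genes reached it. A level of 5 FPKM was reached by 3 members, Cish, Socs2 and Socs4, or 37.5%, where 44.3% of named genes did. These shares are close to the background and say nothing particular about the family.

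**Figure D2:**
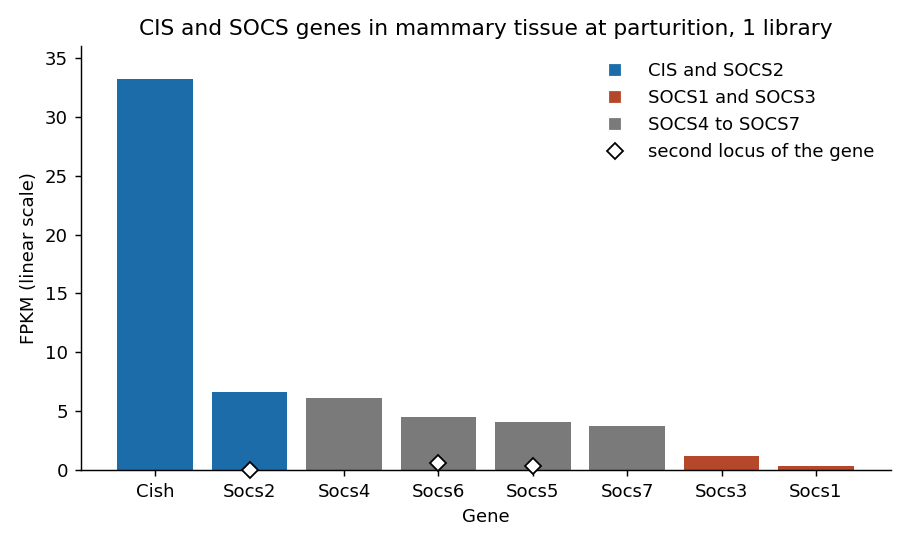
FPKM of each member (y axis, linear, bars from 0) in the 1 library at parturition, in falling order; bars give the highest locus of a gene and open diamonds its second locus, and colours give the subgroups. Cish at 33.2 FPKM rises above the other 7, which lie between 0.38 and 6.61, and no second locus exceeds 0.61.

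**Figure D3:**
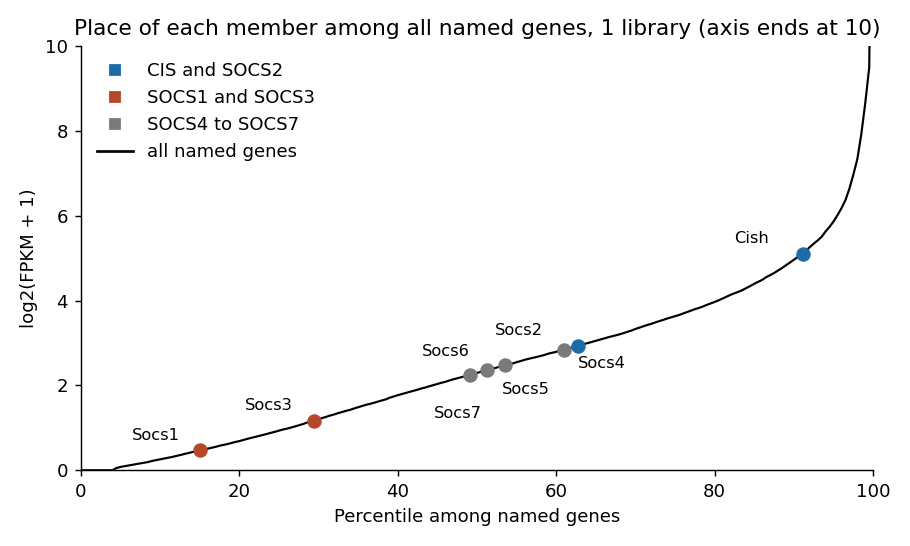
Level of each member on the log2(FPKM + 1) scale (y axis, ending at 10) against its percentile among 14847 named genes (x axis); the black line gives all named genes in order. Cish lies at percentile 91.1, 5 members lie between 49.1 and 62.7, and Socs3 and Socs1 lie at 29.4 and 15.1.

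In the table, which was built on assembled transcript loci, a gene can hold several loci, and 3 members did so. Of all named genes 25.8% had more than 1 locus. Socs2 had its level on 1 locus and a second locus listed at 0. Socs5 had loci at 4.13 and 0.37 FPKM, and Socs6 at 4.56 and 0.61, so the lower locus was 9.06% and 13.4% of the higher. Over the 2210 named genes with 2 loci and a level above 0 the median of this share was 14.6%, with quartiles of 2.36% and 37.0%, and in 15.2% of them the lower locus was at 0. Summed over loci, Socs5 came to 4.50 FPKM and Socs6 to 5.17, and the order of the 8 genes stayed as given. With the mean over loci in its place, Socs2 at 3.31 FPKM, Socs6 at 2.58 and Socs5 at 2.25 came below Socs7. What the second loci contain was not tested, since the table gives no positions.

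The symbols Socs4, Socs6 and Socs7 need care, because RefSeq lists Socs7 among the older names of the gene now called Socs4, and Socs4 among those of the gene now called Socs6. All 3 symbols had loci of their own and were taken as written. In the GRCm38.p6 gene table, long noncoding RNA genes overlap Socs2 (Gm33230) and Socs5 (Gm30510). The labels do not state whether the authors' counting used strand, so reads of such partners cannot be told apart from those of Socs2 and Socs5. No annotated gene overlaps the other 6 members there.

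Levels of the genes beside each member on the chromosome are given next, by the order of protein-coding genes in GRCm38.p6. Cish at 33.2 FPKM lies between Mapkapk3 at 7.80 and Hemk1 at 7.17, so it was higher than both. Socs2 at 6.61 FPKM lies between Cradd at 2.08 and Mrpl42, a mitochondrial ribosomal protein gene, at 81.0. Socs5 at 4.13 FPKM lies between Cript at 24.5 and Mcfd2 at 145 and was lower than both. Socs3 at 1.25 FPKM lies between Tha1 at 1.55 and Pgs1 at 25.6. For the other 4 members 1 neighbour had a value: Clec16a at 6.40 FPKM beside Socs1, Wdhd1 at 1.57 beside Socs4, Rttn at 0.52 beside Socs6 and Arhgap23 at 1.59 beside Socs7.

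The ubiquitin ligase partners listed here were mostly higher than the SOCS genes. The list is wider than elongins B and C, cullin 5 and RNF7, since it also holds Cul2, Rbx1 and NEDD8 genes. Its 8 measured genes, without Ube2f, which had no locus of its own, had a median of 24.0 FPKM. All 8 reached 1 FPKM and 3 were above Cish, against 73.6% and 8.91% of all named genes. Of the elongins, Cul5 and Rnf7, only Rnf7 was above Cish. The RING protein gene Rnf7, which pairs with cullin 5, was at 41.6 FPKM, its relative Rbx1 at 31.4, the ubiquitin-like modifier gene Nedd8 at 41.5 and the NEDD8-conjugating enzyme gene Ube2m at 39.1. Elongin B and elongin C, under their older symbols Tceb2 and Tceb1, were at 16.7 and 15.2 FPKM, a ratio of 1.10, and each was below Cish. The cullin genes were lower, Cul2 at 9.97 FPKM and Cul5 at 4.33. Cul5, the cullin best known for SOCS proteins, thus stood near Socs5 and Socs6 by its highest locus, but came to 7.16 FPKM summed over loci, above Socs2. Cish was above Cul5 in both cases.

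Other genes with a SOCS box had a lower median than the SOCS family. Of the 28 listed genes 24 were measured, with a median of 1.57 FPKM. Of these 24, 14 (58.3%) reached 1 FPKM and none was above Cish, against 73.6% and 8.91% of all named genes. The highest were the ankyrin repeat gene Asb13 at 17.1 FPKM, the WD repeat genes Wsb2 at 16.4 and Wsb1 at 13.3, and Lrrc41 at 13.0. All 4 were above Socs2; Wsb2 was 2.47 times its level. Rab40c, at 5.93 FPKM by its highest locus, came to 14.7 summed over loci, above Wsb1, Lrrc41 and Socs2. At the low end Asb10 was at 0.057 FPKM and Neurl2 was listed at 0. Below Socs1, which was at percentile 15.1 of named genes, were 5 of the 24.

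Among 13 other genes listed as brakes on JAK and STAT signalling, none was above Cish, where 8.91% of all named genes were. With so few genes this is close to that share and says nothing particular about the list. Whether each of these genes, Ptpn11 among them, acts as a brake or promotes the signal in this tissue was not tested. The median was 3.18 FPKM, below that of the SOCS family, and all 13 reached 1 FPKM, where 73.6% of all named genes did. Summed over loci the median was 5.75 FPKM, above the family's 4.83. The tyrosine phosphatase gene Ptpn2 came nearest, at 25.9 FPKM, so that Cish was 1.28 times higher. The phosphatase genes Ptpn11 and Ptpn1 were at 11.4 and 10.5 FPKM and the PIAS gene Pias2 at 9.85, all above Socs2. The lowest were the adaptor gene Sh2b3 at 2.30 FPKM and the interferon-induced gene Usp18 at 1.94, both above Socs3 and Socs1. Summed over loci Usp18 came to 3.45 FPKM, and Sh2b3 and Pias3, at 2.30 and 2.43, were then lowest. Socs1 was thus below every measured gene of this list.

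Of the receptors that signal through STAT5, those for growth hormone and prolactin stood apart. Ghr was at 55.6 FPKM, or 1.67 times Cish and 8.40 times Socs2, and Prlr at 17.1 FPKM, which Cish exceeded by 1.94 times. The other 10 measured receptors of this list ran from Csf2ra at 4.09 FPKM and Il2rg at 3.59 down to Il7r at 0.26 and Il2ra at 0.24, and the list median was 1.61 FPKM. These are mostly receptors of blood cells. Cish therefore lay between Ghr and Prlr, and Socs2 below both.

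Cish was above all 4 JAK kinase genes, and Socs2 was above Jak3. Jak1 was at 18.2 FPKM, Jak2, the kinase of the prolactin receptor, at 7.76, Jak3 at 5.70 and Tyk2 at 3.93. Tyk2 was below Socs2 by its highest locus but above it summed over loci, at 7.99 FPKM. Of the STAT factor genes, Stat5a at 41.8 FPKM was above Cish, by 1.26 times. Below Cish were Stat3 at 18.6, Stat5b at 17.6 and Stat2 at 7.78, and Stat4 was listed at 0. Stat6 was not analysed here. Socs2 lay below Jak2, Stat3, Stat5b and Stat2.

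Socs3 and Socs1 were set beside gp130-type receptors and receptors for interferons, IL4, IL13 and IL10. Most but not all of these receptor genes were higher than Socs3 and Socs1. Whether SOCS3 or SOCS1 limits each of these receptors was not tested. Of the gp130-type receptors, Lifr was at 12.6 FPKM, Il6ra at 10.9 and the shared subunit gene Il6st, which encodes gp130, at 10.0; Il6st was 8.04 times and Stat3 14.9 times Socs3. Il11ra1 was at 5.92 FPKM and Osmr at 3.35, whereas Csf3r at 0.45, Lepr at 0.35 and Cntfr at 0.19 were below Socs3, Lepr and Cntfr also below Socs1. The interferon gamma receptor genes Ifngr1 and Ifngr2 were at 54.2 and 11.3 FPKM, so that Ifngr1 was 142 times Socs1. The remaining receptors of this list were Ifnar2 at 22.2 FPKM, Il10rb at 15.5, Il4ra at 14.0, Ifnar1 at 3.96, Il13ra1 at 1.86 and Il10ra at 1.09. All 8 were above Socs1, and all but Il10ra above Socs3.

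SOCS4 to SOCS7 are linked to the EGF receptor, to KIT and to insulin signalling, and their genes were set beside a list of such genes. They lay within its range, but that range ran from percentile 4.23 to 83.1 of named genes, so this says little. The 10 measured genes of the list had a median of 4.54 FPKM, near the levels of Socs5 and Socs6. The insulin receptor substrate genes Irs2 and Irs1 were highest, at 17.5 and 13.7 FPKM, followed by Erbb3 at 6.03 and Insr at 5.56. The lowest were Erbb4 at 0.58 FPKM and Flt3 at 0.022. Summed over loci Erbb4 came to 2.68 FPKM, above Igf1r at 1.75 and Erbb2 at 2.46. Egfr, looked up because SOCS4 and SOCS5 act on it, was at 3.91 FPKM, or 0.63 of Socs4 and 0.95 of Socs5.

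The ligand genes that had a value were mostly low in this tissue. Only 17 of 32 listed ligand genes had a value, with a median of 0.26 FPKM. Neither this median nor the share that follows covers the other listed genes. Of these 17, 6 (35.3%) reached 1 FPKM, against 73.6% of all named genes. Egf was at 18.7 FPKM, the KIT ligand gene Kitl at 13.5, the leptin gene Lep at 5.51 and Nrg1 at 3.19. None of the measured ligand genes was above Cish, where 8.91% of all named genes were. Areg, Csf3 and Il4 were listed at 0. Lif and Osm, ligands of gp130-type receptors, were at 0.26 and 0.072 FPKM. Prolactin and growth hormone, which are made mainly in the pituitary, and Il6 and Ifng were not analysed here.

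Set beside other textbook STAT5 targets, Cish was in the middle and Socs2 in the lower part. The milk protein genes Csn2 and Wap, at 170861 and 63664 FPKM, were 5147 and 1918 times Cish. Elf5, an alveolar transcription factor gene, at 577 FPKM was 17.4 times Cish, and the kinase gene Akt1 at 169 was 5.08 times. The kinase gene Pim1 was closest to Cish, at 31.0 FPKM, a ratio of 1.07; summed over loci Pim1 came to 35.9 FPKM and was above Cish. By the highest locus the lowest were Bcl6 at 2.36 FPKM and Pim2 at 1.16, and both lay below Socs2. Summed over loci Bcl6 came to 5.50 FPKM, above Igf1 at 2.55 and Ccnd2 at 5.32. All of these values are below Socs2. Whether STAT5 raises or lowers each target in this tissue was not tested. The 11 targets had a median of 28.0 FPKM, and 4 were above Cish by the highest locus, where 8.91% of all named genes were.

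**Figure D4:**
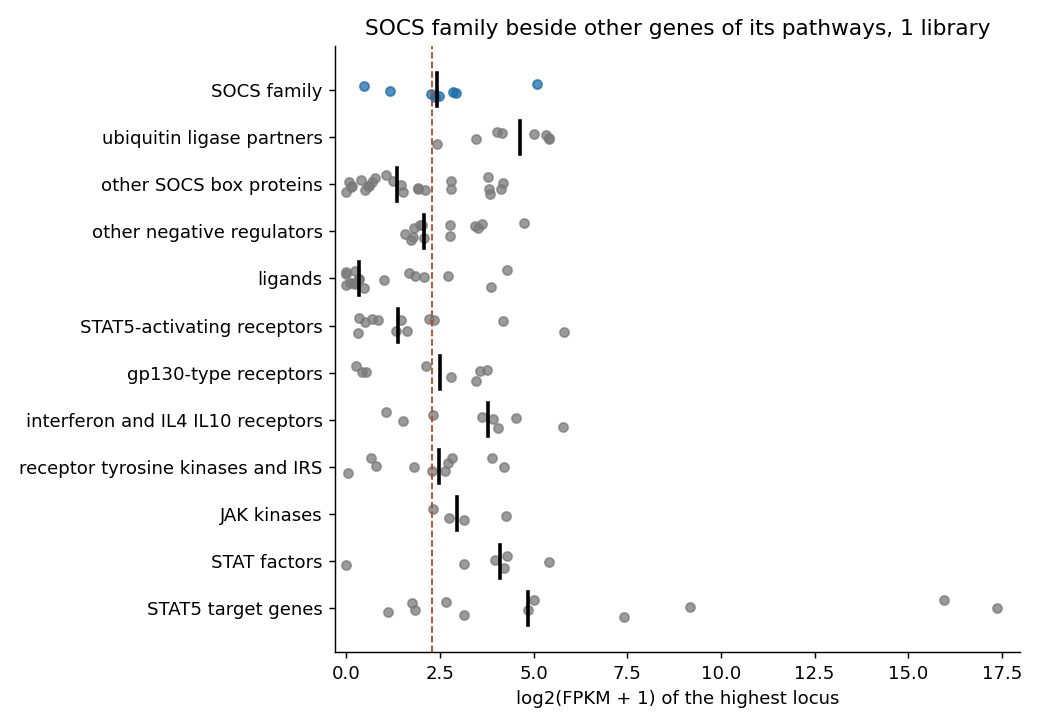
Levels on the log2(FPKM + 1) scale (x axis) of the family (blue) and of other genes of its pathways (grey), 1 point a gene, with list medians as black bars and the median of all named genes as a dashed line. Cish, at 5.10 on this scale, lies right of every other member and of most pathway genes, while the ligase partners lie mostly right of the other 7 members.

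The library carried RNA of several cell types, so no member's level can be assigned to one of them. In bulk tissue, fewer cells of a type and less RNA per cell cannot be told apart. Luminal epithelial markers were all present, 9 of 9 measured and above 5 FPKM, a level that 44.3% of all named genes reached, led by Csn2. The highest marker of each list was Fabp4 at 723 FPKM for adipocytes, Dcn at 82.6 for fibroblasts, Cnn1 at 59.0 for myoepithelium, Tnnt3 at 37.2 for skeletal muscle, Pecam1 at 15.1 for endothelium and Cd14 at 98.5 for macrophages. Over the 5 measured macrophage markers, however, the median was 3.004 FPKM, which was that of Csf1r. Emr1 at 1.97 and Mrc1 at 1.73 were lower, whereas Lyz2, like Cd14, was above Cish. The macrophage median was below those of 29.1 for fibroblasts and 35.3 for myoepithelium. The genes listed for lymphocytes were low, with 2 of 9 reaching 1 FPKM, where 73.6% of all named genes did. These were Ptprc at 2.47, which is not particular to lymphocytes, and Lck at 1.10. The part of each cell type in the levels of Cish and the SOCS genes was not tested.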

How the data were processed

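A single poly(A) RNA library of mammary tissue at parturition was used. The authors' deposited table gives FPKM per locus of a transcript assembly. The submitters' processing notes name CASAVA, TopHat and the build mm9; no source here names the tool that computed the FPKM, its annotation or the use of strand. The table holds no read counts, so depth is unknown and no counting interval can be given.

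Of 30305 loci, 21958 carried 1 symbol, 117 several and 8230 none. The highest locus stood for a gene, with the sum and the mean over loci as alternatives and no minimum FPKM. A percentile is the share of the 14847 named genes below a level, plus the tied genes at 0.5 weight. Named genes are those with a locus that carries 1 symbol, so genes without such a locus are not ranked. With 1 library no test was possible and none was run. The family and the gene lists were chosen with earlier results of these data known. Named are all members, all measured genes of lists of up to 9, the 4 highest and 2 lowest of longer lists, and the highest and the zero genes of cell type lists; other genes named (Egfr, Rab40c, Pias3, Osm, Lif, the further genes listed at 0 and chromosomal neighbours among them) were added after their values were seen. List genes not found were matched through a unique older symbol in the GRCm38.p6 gene table (Tceb1, Tceb2 and Emr1). Promoter windows are RefSeq sequences of GRCm38.p6. Single values of some genes that the rule names are left out. The STAT5A and H3K4me3 lists are in mm9, and with no annotation of mm9 at hand no peak or region was assigned to a member. Computation used Python 3.11, pandas 2.3.3 and numpy 2.4.6, and the scoring was tested on simulated data.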

Additional observations from a re-analysis of the deposited data

How the results depend on the processing

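The order of the 8 members was the same with the highest locus and with the sum over loci, and under the sum the levels of Socs5 and Socs6 moved and those of the other 6 did not. With the mean over loci Socs2, Socs6 and Socs5 stood at 3.31, 2.58 and 2.25 FPKM, below Socs7 at 3.75. The sum over loci gave a family median of 4.83 FPKM and a Cish share of 54.4%; set against the other 7 members alone, Cish came to 124% of their sum. At a threshold of 5 FPKM in place of 1, 3 members passed. The median percentile of the members was 52.8 among single-locus genes and the members, and 36.8 over the 7 members of at least 1 FPKM among genes of at least 1 FPKM, where fewer low genes were ranked; Cish then stood at percentile 87.9. Motif counts were the same with the motif of 4 inner bases added. No paired analysis was possible because 1 expression library was used, and no replicate could be left out. Nearness of STAT5A peaks or H3K4me3 regions to the members was not run. With depth unknown, the precision of low values such as Socs1 at 0.38 FPKM and Socs3 at 1.25 FPKM cannot be given.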
